A study of Mus musculus with 4 samples.

Results

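TCF1, the product of Tcf7, binds DNA through a high mobility group box that bends the helix, and it recruits β-catenin as a coactivator or Groucho proteins of the TLE family as corepressors. It acts from the earliest T cell progenitors onwards. In CD4 CD8 double-positive (DP) thymocytes, a stage of the αβ lineage, it is known to be needed for survival and for normal coreceptor expression. The regions described here are TCF1 peaks of DP thymocytes that have high scores and no counterpart in either peak list of γδ thymocytes. They were chosen by their measured scores and overlaps: a peak had to lie on 1 of the 19 autosomes, reach the best-scored 10 % of the DP list and share not even 1 bp with a γδ peak. Of the 90956 DP peaks, 9126 reached the score limit, 8725 of these were autosomal, and 6006 were in neither γδ list. The 6006 regions, called DP-only regions below, covered 2.05 Mb.

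TCF1 was immunoprecipitated from sorted mouse thymocytes on the C57BL/6 background, with 1 library for each population. The DP cells came from wild type mice. Both γδ populations came from mice of the genotype TCRbeta KO.Sox13 ECFP KI/+, which lack TCRβ and have the fluorescent protein ECFP knocked into 1 allele of Sox13, and were sorted as CD24+ cells with high (Sox13hi) or low to absent (Sox13lo) reporter signal. Lineage and genotype cannot be told apart in this comparison, and without replicates no test between populations was possible. The input of γδ cells, made with no antibody, was not analysed here. The labels do not say whether animals were pooled.

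The γδ lists were shorter than the DP list, with 41720 peaks for Sox13hi and 10871 for Sox13lo, or 16.2 and 4.20 autosomal peaks per Mb against 34.7 in DP cells. Each list has its own score scale and lowest score, and read depth is unknown. A DP-only region is therefore a region without a γδ peak at the limits of those lists, which is not the same as a region free of TCF1 in γδ cells. All positions are on mm9. Nearby genes, the share of promoters, the presence of αβ-lineage genes and TCF/LEF motifs were not analysed here, because the gene and promoter tables used here are on GRCm38, a different build.

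Within the best-scored DP peaks, the share of DP-only regions rose as the score of the authors fell, and both kinds occurred in each score band. The values in this paragraph were used to choose the regions, so they are a description with no test. DP-only regions made up 68.8 % of the 8725 best-scored autosomal peaks (95 % Wilson interval 67.9 to 69.8, which covers counting error only), below the 91.9 % of all 85669 autosomal DP peaks that overlapped neither γδ list. When the best-scored peaks were divided by rank into 10 bands, 125 of the 850 peaks in the highest band were DP-only, or 14.7 % (12.5 to 17.2). The share was 40.8 % in band 2 and 62.2 % in band 3, and it reached 87.6 % (85.2 to 89.6) in the lowest, where 767 of 876 peaks were DP-only. Among the 90 autosomal peaks ranked within the first 100 of the DP list, 1 was DP-only. Among the 932 ranked within the first 1000, 148 were, or 15.9 % (13.7 to 18.4). Most DP-only regions thus came from the lower part of the score range, with a median score of 65.5 and quartiles of 58.8 and 77.9, against a median of 92.8 for the 2719 shared peaks.

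**Figure D1:**
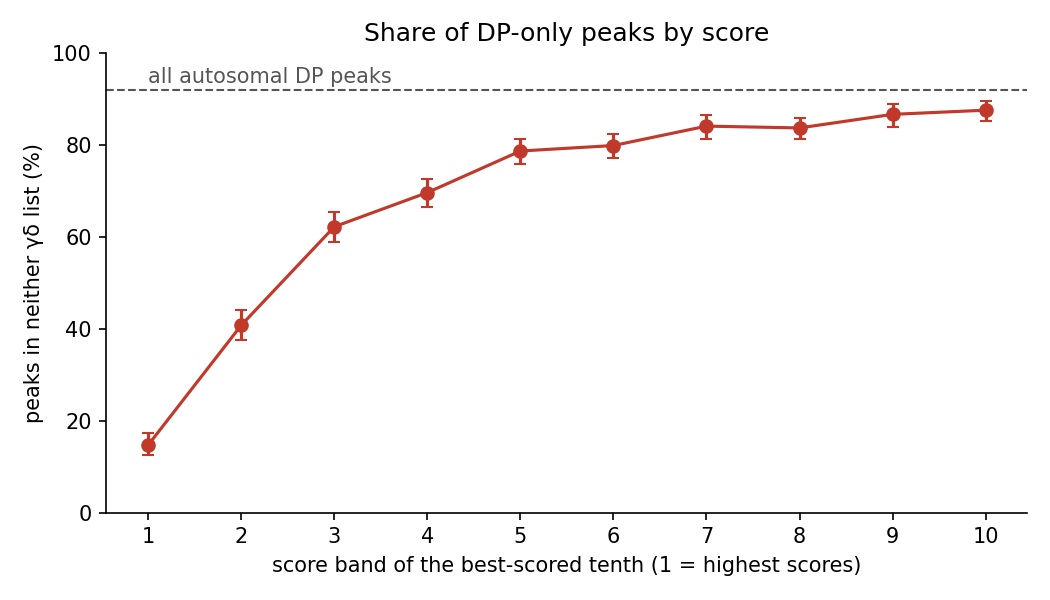
Share of the best-scored autosomal DP peaks that were in neither γδ list (vertical axis, %) in 10 score bands from highest to lowest (horizontal axis), with 95 % Wilson intervals; the dashed line is the share among all autosomal DP peaks. The share rose from 14.7 % in the highest band to 87.6 % in the lowest and stayed below the 91.9 % of all autosomal DP peaks.

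Regions just inside and just outside the score limit had like widths and distances. The lowest score of a DP-only region was 54.8, which 183 of them shared. In the median these were 300 bp wide and 24.3 kb away from the nearest γδ peak. The 30 DP-only peaks with the next score, 54.6, were likewise 300 bp wide in the median and lay 25.2 kb from the nearest γδ peak in the median. Since ties were this numerous, no single region is named at the limit.

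The 2719 best-scored peaks that did overlap a γδ peak were mostly in both γδ lists. Of these, 2098, or 77.2 %, overlapped a peak of each list, 549 overlapped a Sox13lo peak alone and 72 a Sox13hi peak alone. With the Sox13lo list as the only γδ list, 6078 of the best-scored autosomal DP peaks would have been without a counterpart, against 6555 with the Sox13hi list alone. The Sox13lo list, with fewer peaks, thus removed more of the best-scored DP peaks than the Sox13hi list did. Sox13lo peaks were wider, with a median of 350 bp against 100 bp for Sox13hi. They covered 4.50 Mb against 6.28 Mb, so the lists differed less in coverage than in number of peaks. An overlap of 1 bp is easier to reach for wider peaks, and the part of width in this order was not tested.

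The 10 best-scored DP-only regions were spread over 6 chromosomes, and 8 of them were wider than 350 bp. The highest score, 341, belonged to a region of 200 bp on chromosome 9 at 3001551 to 3001750, which stood at rank 54 of the DP list. It was the first peak of that chromosome in any of the 3 lists, next to the unsequenced centromeric end of the assembly, and its nearest γδ peak was a Sox13lo peak at 18.6 kb. In all, 14 DP-only regions started before 3.5 Mb of their chromosome, as did 6 shared best-scored peaks. Whether a region lies in repeated sequence was not checked, and each is reported only as a call of the authors.

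Chromosome 1 held 3 of the 10 best-scored DP-only regions. The first, at 167689001 to 167689750, was 750 bp wide with a score of 272, and the nearest γδ peak was a Sox13hi peak 22.2 kb away. Another, scored 242, spanned 137450451 to 137451000 and lay about as far from the nearest Sox13hi peak (30.8 kb) as from the nearest Sox13lo peak (30.7 kb). The third was at 81710051 to 81710500 with a score of 228, 6.35 kb from a Sox13hi peak and 290.2 kb from a Sox13lo peak. No γδ peak was nearer than 6.35 kb to any of these 3 regions.

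Chromosome 2 held 2 more. A region at 151773301 to 151773800 with a score of 265 lay 68.2 kb from the nearest γδ peak, the largest such distance among the 10, and 6.25 kb from another DP-only region. A region of 350 bp at 171830701 to 171831050 had a score of 230. A further region on each of 4 chromosomes completed the 10. These were on chromosome 9 at 41332101 to 41332650 (score 260), then on chromosome 17 at 10918651 to 10919650 (score 242), on chromosome 14 at 78667101 to 78667500 (score 229) and on chromosome 4 at 154353901 to 154354450 (score 218). The last was the closest of the 10 to a γδ peak, at 3.75 kb from a Sox13lo peak and 3.85 kb from a Sox13hi peak. Over the 19 autosomes the highest score of a DP-only region ranged from 138 to 341.

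DP-only regions were narrower than shared peaks. Their median width was 350 bp with quartiles of 300 and 400 bp, against 450 bp and quartiles of 400 and 550 bp for the shared best-scored peaks. In the highest score band the medians were 450 and 600 bp, but scores were not alike there, since shared peaks reached 17027 and DP-only regions 341. In the lowest band, with scores of 54.8 to 56.4, the medians were 300 and 350 bp. In each of the 10 bands the DP-only median was the lower one. Wider peaks overlap other peaks more easily, so the overlap rule favours this order. Of the DP-only regions 4.25 % were wider than 500 bp, against 31.8 % of the shared peaks.

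**Figure D2:**
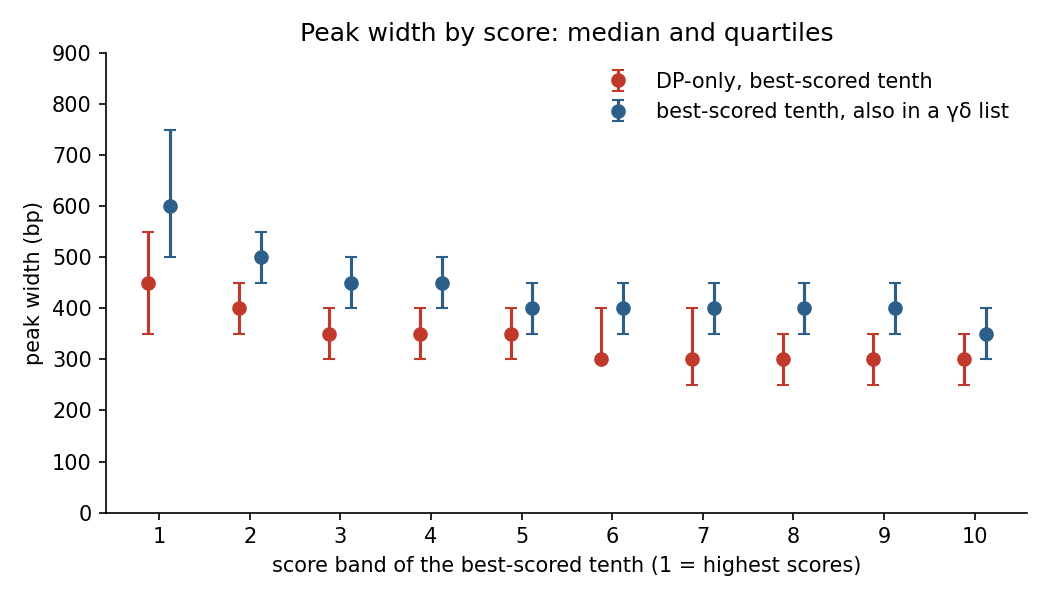
Peak width in bp (vertical axis) in the 10 score bands (horizontal axis) for DP-only regions and for best-scored DP peaks also in a γδ list; points are medians and bars reach the quartiles. DP-only medians ran from 450 bp in the highest band to 300 bp in the lowest and were below the shared medians of 600 to 350 bp in each band.

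Among peaks of 300, 350, 400 or 450 bp, the share of DP-only peaks was lower in the highest 25 % by score than in the lowest. The intervals of both score groups were apart at 350, 400 and 450 bp and overlapped at 300 bp. Within the highest and the lowest 25 % by score the share differed between 300 and 450 bp, although scores still varied within each group. Score and overlap were used to choose the regions, so these shares are a description with no test. Of the 358 best-scored autosomal peaks exactly 450 bp wide in the highest 25 % by score, 27.1 % (22.8 to 31.9) were DP-only. Of the 117 in the lowest 25 %, 59.8 % (50.8 to 68.3) were. At 400 bp the shares of these score groups were 50.5 % (45.1 to 55.8) of 331 and 76.9 % (71.7 to 81.4) of 290. At 350 bp they were 70.5 % (64.4 to 76.0) of 234 and 84.6 % (81.1 to 87.6) of 469. Among peaks exactly 300 bp wide the shares were 84.5 % (76.8 to 90.0) of 116 and 91.5 % (88.8 to 93.6) of 528. These intervals overlapped, which does not show that the shares were alike. Of these groups, peaks of 450 bp with high scores were thus the least often DP-only. Best-scored peaks of 300 bp were mostly DP-only in both score groups, as were 91.9 % of all autosomal DP peaks.

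The widest DP-only regions included 5 of at least 1000 bp. The widest, on chromosome 13 at 99264951 to 99266050, spanned 1100 bp with a score of 139 and lay 8.75 kb from a Sox13lo peak and 8.85 kb from a Sox13hi peak. The next, scored 87.0, spanned 1050 bp on chromosome 14 at 107929551 to 107930600. Regions of 1000 bp lay on chromosome 5 at 104760551 to 104761550 (score 209), on chromosome 4 at 108618601 to 108619600 (score 208) and at the chromosome 17 position given above. At the other end, 443 DP-only regions, or 7.38 %, were at most 200 bp wide, and 3 of those ranked within the first 1000 of the DP list, the best-scored region on chromosome 9 among them.

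At 10 kb, DP-only regions lay near γδ peaks about as often as the same regions did after being displaced. The median distance to the nearest γδ peak was 20.1 kb, with quartiles of 7.95 and 41.1 kb. For 76.5 % of the regions the nearest γδ peak was in the Sox13hi list, which is the longer of the lists. Of the 6006 regions, 1789 lay within 10 kb of a γδ peak, or 29.8 % (28.6 to 31.0). When the same regions were moved by 100 kb or by 1 Mb to either side, and moved regions that then overlapped a γδ peak were left out, the share was 29.3 % on average, with a range of 28.4 to 30.1 % over the 4 moves. The 6006 DP-only peaks that came next by score gave 29.4 % (28.3 to 30.6).

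At 500 bp the share near a Sox13hi peak was above that of moved positions, with an interval that reached their range, and the share near a Sox13lo peak was not above it. Within 500 bp of a γδ peak without overlap were 135 DP-only regions, or 2.25 % (1.90 to 2.65), against 1.55 to 1.90 % after the moves. Of these 135 regions, 120 were within 500 bp of a Sox13hi peak, which is 1.998 % (1.67 to 2.38) of all, against 1.37 to 1.68 % after the moves. Near a Sox13lo peak were 22, or 0.366 % (0.242 to 0.554), against 0.370 to 0.589 %. Within 1 kb the Sox13lo share was 0.716 % (0.532 to 0.963), against 0.840 to 0.952 %. At 10 kb the order was another: 7.99 % (7.33 to 8.70) of regions lay within that distance of a Sox13lo peak, against 6.89 to 7.48 % after the moves, and 27.1 % (26.0 to 28.3) of a Sox13hi peak, against 26.5 to 28.1 %. The near approaches included some well-scored regions. The best of them, scored 162, was on chromosome 13 at 44964701 to 44964950 and lay 350 bp from a Sox13lo peak. The next, scored 159, was on chromosome 4 at 130903301 to 130903850 and lay 200 bp from a Sox13hi peak. The others of the 5 best were on chromosome 6 at 128919351 to 128919900, 350 bp from a Sox13hi peak, on chromosome 13 at 98341051 to 98341550, 200 bp away, and on chromosome 15 at 80397501 to 80397900, 50 bp away. The last gap equals 1 step of the 50 bp grid on which peak edges were placed.

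The regions farthest from γδ peaks lay together on chromosome 14. A region scored 59.4, at 44511001 to 44511450, was 410.9 kb from the nearest γδ peak. A neighbour only 4.45 kb from it, at 44515901 to 44516250 with a score of 60.1, was 406.1 kb away. The next farthest, scored 69.5, was on chromosome 7 at 39149001 to 39149600 and lay 256.4 kb from a γδ peak. The pair on chromosome 14 scored below the median of the set, 65.5, and the region on chromosome 7 above it.

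The shared best-scored DP peaks were also about as often within 10 kb of the regions as of their moved positions. Within 10 kb of such a peak were 144 regions, or 2.40 % (2.04 to 2.82), against 2.27 to 2.39 % after the moves. Within 1 kb there were 11, or 0.183 % (0.102 to 0.328), against 0.233 to 0.400 % after the moves. Lower-scored DP-only peaks were within 10 kb of 45.7 % (44.5 to 47.0) of the regions, against 44.7 to 46.3 % after the moves, and within 500 bp of 2.61 % (2.24 to 3.05), against 3.22 to 3.47 %. Peaks of 1 list never overlap each other and moved positions are not bound by that spacing, so the values at 500 bp and 1 kb are not comparable with the moves. The lower-scored DP-only peaks showed the same shortfall among themselves, with 5.51 % (5.34 to 5.68) within 1 kb of another, against 6.29 to 6.34 % after the moves.

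**Figure D3:**
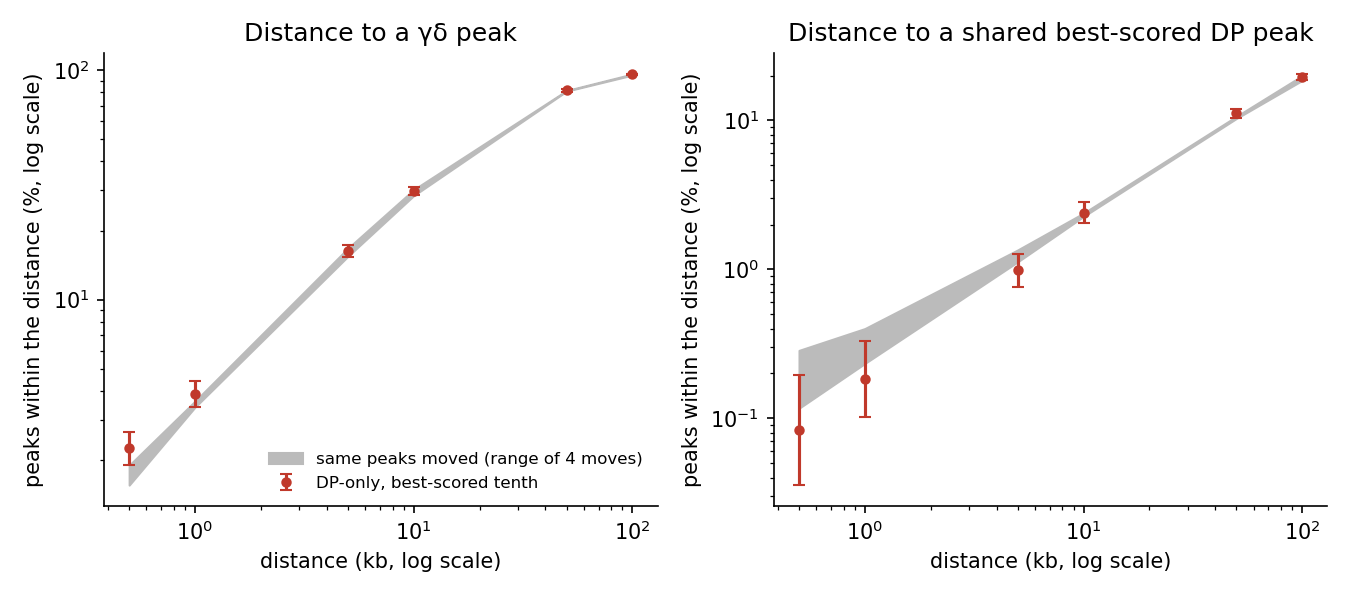
Share of DP-only regions within a given distance (horizontal axis, kb, log scale) of a γδ peak (left) or of a best-scored DP peak also in a γδ list (right), on a log scale in %; points are the regions with 95 % Wilson intervals and the grey band is the range of the same regions moved by 100 kb and 1 Mb to either side. At 10 kb the regions gave 29.8 % on the left and 2.40 % on the right, against bands of 28.4 to 30.1 % and 2.27 to 2.39 %.

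Among DP-only regions the intervals of high-scored and low-scored ones overlapped. Of the 2002 regions with the highest scores, from 72.8 to 341, 28.9 % (27.0 to 30.9) lay within 10 kb of a γδ peak, against 29.5 % for the same regions moved. Of the 2002 with the lowest scores, 29.6 % (27.6 to 31.6) did, against 29.4 %. For the Sox13lo list the shares were 7.94 % (6.84 to 9.21) of the high-scored and 8.29 % (7.16 to 9.58) of the low-scored regions, against 7.50 and 6.86 % after the moves.

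The shared best-scored peaks lay closer together than after being moved, and the DP-only regions did not. Of the DP-only regions, 313 had another DP-only region within 10 kb, or 5.21 % (4.68 to 5.80), against 4.74 to 5.44 % when they were moved. Of the shared best-scored peaks 9.34 % (8.30 to 10.5) had another within 10 kb, against 3.20 to 4.24 % when moved, so the ratio to the mean of the moves was 2.49 for shared peaks and 1.02 for DP-only regions. Within 1 kb the ratio was 13.1 for shared peaks, with 105 of them, and 0.933 for DP-only regions, with 30 of them. The spacing within a list named above holds for both ratios at 1 kb, so they are not comparable with the moves and are given as a description. The next DP-only peaks by score had a ratio of 0.976 at 10 kb, close to that of the regions.

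Counts in bins of 1 Mb were also more uneven for shared peaks than for DP-only regions, which themselves stood slightly above the next peaks by score. Over 2425 bins of the autosomes the variance of the number of DP-only regions was 1.13 times its mean of 2.48, and 10.1 % of bins held none. For shared best-scored peaks the variance was 1.90 times a mean of 1.12, although the shared peaks were fewer, which tends to lower this measure where peaks cluster. The next 6006 DP-only peaks, a set of the same size, gave 1.03. In 3 sets of 2002 DP-only regions each, ordered by score, the values were 1.04, 1.04 and 1.07 from the highest scores to the lowest. Placement that is independent from bin to bin with equal density gives a value near 1.

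**Figure D4:**
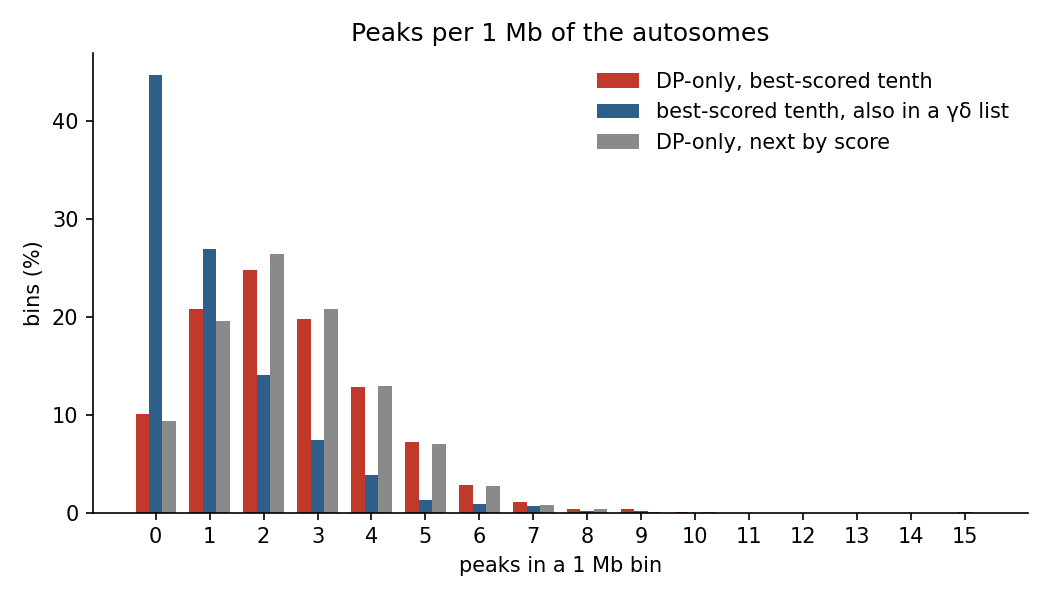
Share of the 1 Mb bins of the autosomes (vertical axis, %) that held a given number of peaks (horizontal axis), for DP-only regions, for best-scored DP peaks also in a γδ list, and for the 6006 DP-only peaks next by score. DP-only regions were missing from 10.1 % of bins, the next peaks from 9.36 % and shared peaks from 44.7 %.

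Dense groups of DP-only regions were rare. Of the windows of 100 kb that held any, 4560 held 1 region, 628 held 2, 58 held 3 and 4 held 4. The counts that random placement would give were not computed. The tightest of the last kind was on chromosome 6 from 126710951 to 126746300, where the 4 regions spanned 35.4 kb with scores of 82.2, 64.8, 69.3 and 112, and no γδ peak lay in between. The nearest Sox13hi peak was 66.4 kb from it. The others were on chromosome 8 from 112331201 to 112392600, on chromosome 2 from 171500451 to 171571650 and on chromosome 14 from 104707551 to 104788100, each with 1 Sox13hi peak and no Sox13lo peak inside. On chromosome 8 a Sox13lo peak lay just outside, 0.1 kb from the last region, at 112392351 to 112392600. That region was 0.2 kb from a Sox13hi peak. None of the 4 windows held a shared best-scored DP peak among its DP-only regions.

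DP-only regions were spread more evenly over the autosomes than shared peaks. Peaks per Mb relative to all autosomes ran from 0.787 on chromosome 13 to 1.19 on chromosome 5 for DP-only regions, and from 0.683 on chromosome 14 to 1.39 on chromosome 19 for shared best-scored peaks. The SD over the 19 autosomes was 0.101 for DP-only regions, where counting alone would give about 0.0579, and 0.238 for shared peaks, where it would give about 0.0869. The next DP-only peaks had an SD of 0.0546, about that of counting alone (0.0578). The DP-only regions thus varied over chromosomes by more than counting error, and the peaks just below them in score did not.

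The chromosomes poorest and richest in DP-only regions were not those of the shared peaks. On chromosome 7 the relative density was 0.823 for DP-only regions and 1.37 for shared peaks, and 57.0 % (52.8 to 61.1) of its best-scored peaks were DP-only, the lowest share of any autosome. On chromosome 14 it was 1.07 against 0.683, and 77.6 % (73.3 to 81.3) were DP-only, the highest share. Overlap with the γδ lists was used to choose the regions, so these shares are a description with no test. The relative density of the Sox13lo list was 1.19 on chromosome 7 and 0.678 on chromosome 14, and that of the Sox13hi list 0.804 and 1.00. The part of the γδ lists in these contrasts was not tested. For DP-only regions and shared peaks, chromosome 11 had 1.08 and 1.37, and chromosome 5 had 1.19 and 1.17, high in both sets. Across the 19 autosomes, which share 1 library, the densities of DP-only regions and shared peaks had r = -0.15 and rho = -0.16, given as a description.

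**Figure D5:**
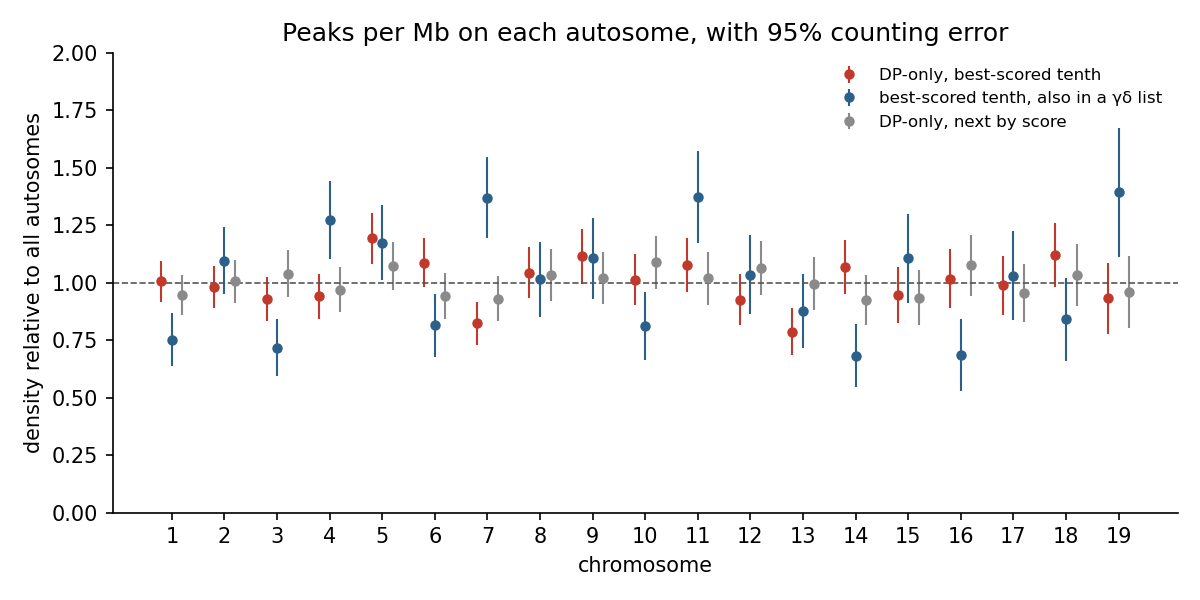
Peaks per Mb on each autosome relative to all autosomes (vertical axis) for DP-only regions, best-scored DP peaks also in a γδ list and the 6006 DP-only peaks next by score; bars are 95 % counting error. DP-only regions lie between 0.787 and 1.19, and shared peaks between 0.683 and 1.39.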

How the data were processed

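The authors deposited each peak list as 6 columns without a header, the fifth being a score per peak on a scale that is not given in the sources used here. The build is mm9, per the submitters' processing notes. Aligner, peak caller, threshold and use of the input are likewise not given. Starts lay on a grid of 50 bp in 100 % of peaks, and the end was read as the last base counted from 0. Printed positions are 1-based. In each list 100 % of scores fell within 0.05 of a whole number of steps of 1 size, so ties are common, and peaks tied at the limit were kept.

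Overlaps of at least 1 bp were computed in Python 3.11.15 with numpy 2.4.6 and pandas 2.3.3 and checked with bedtools 2.31.1 and on simulated intervals. Wilson intervals came from scipy 1.17.1, mm9 chromosome lengths from GenomeInfoDb 1.38.1, and plots from matplotlib 3.10.9. Distances are the bases between peaks. Moved regions were shifted by 100 kb and 1 Mb to either side as a description of the background, and those off the chromosome or in its first 3 Mb were dropped. Bins of 1 Mb exclude the first 3 Mb. Regions were named by rule: the 10 best-scored, the 5 widest, the 3 farthest from a γδ peak, the 5 best-ranked within 500 bp of one, and the densest windows of 100 kb. The regions, rules and alternatives were chosen with earlier results of these data known. Planned results on promoters and gene lists were not analysed here, because of the build.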

Additional observations from a re-analysis of the deposited data

How the results depend on the processing

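Each population had 1 library and read depth is unknown, so no alternative measures the spread between samples, and the limit that depth sets on the γδ lists could not be given. No paired analysis was possible because there was a single library of each kind. Alternatives that left out ties at the score limit or used a single γδ list were chosen after seeing the data. Of 31 values under other settings, 17 lay outside the counting interval of the reported value and 14 inside it. Stricter or looser limits on score, overlap and distance move shares by construction. Other settings for promoters and listed genes were not run.

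The share of best-scored autosomal DP peaks in neither γδ list was 71.0 % with a reciprocal overlap of 50 %, 67.3 % when a gap of up to 500 bp counted as shared, 71.5 % with the better-scored 50 % of each γδ list and 75.1 % with the Sox13hi list alone. It was 53.7 % in the best-scored 5 % of the DP list and 80.1 % in the best-scored 20 %. The median width was 300 bp in the best-scored 20 %. The share of regions within 10 kb of a γδ peak was 28.5 % in the best-scored 5 %, 31.9 % with the reciprocal overlap, 28.2 % with the gap of 500 bp and 15.3 % with the better-scored γδ peaks. It was 3.88 % within 1 kb and 96.1 % within 100 kb. The share within 10 kb of another DP-only region was 1.95 % in the best-scored 5 % and 11.5 % in the best-scored 20 %, and at 1 kb and 100 kb it was 0.4995 % and 41.8 %.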
